A study of Mus musculus with 6 samples.

Results

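Natural killer (NK) cells inside mouse mammary tumours were the subject: 267 of 40418 retained cell barcodes, spread over 6 single-cell RNA libraries. A barcode was a member when it held at least 2 unique molecular identifiers (UMIs, tags that count captured RNA molecules) of Ncr1 and Klrb1c together, 0 UMIs of the T cell genes Cd3d, Cd3e and Cd3g, 0 of the B cell genes Cd79a and Ms4a1, and a C1q share under 1% of its UMIs, C1q being a macrophage product. The cells were thus chosen by their own UMIs of these genes, whose levels in the members are a description and not a finding. The libraries came from live CD45+ cells, that is blood-derived cells, sorted from tumours that the mouse mammary tumour cell line Py8119 formed within 4 weeks in female mice. The series asks how loss of the gene Mtdh in the tumour-bearing animal bears on its immune cells. The 6 groups hold 1 library each. Intact Mtdh knockout mice (intact KO) gave 108 NK cells. Irradiated hosts that had received donor bone marrow 8 weeks before the tumour cells gave 42 NK cells with KO marrow in KO host, 15 with KO marrow in WT host, 27 with WT marrow in KO host and 34 with WT marrow in WT host, and intact wild-type mice (intact WT) gave 41. An intact animal carries its genotype in both the host and the marrow-derived cells. How many animals stand behind a library is not in the labels, and with 1 library per group every p-value below rests on differences between libraries.

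NK cells are innate lymphocytes that kill stressed or transformed cells without prior priming. They weigh signals from activating receptors, such as the natural cytotoxicity receptor encoded by Ncr1 and the receptor NKG2D encoded by Klrk1, against inhibitory receptors for MHC class I, among them the Ly49 family encoded by the Klra genes. Killing is done by perforin, which opens the target cell membrane, and by granzymes, serine proteases stored in granules beside it. In tumours, NK cells mix with the related type 1 innate lymphoid cells, which stay in tissue and share many of the same genes.

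Mtdh itself, the targeted gene (plus strand of chromosome 15 in mm10, 34082694 to 34145624), went with the marrow and not with the host. Levels are given as CPM, the UMIs of a gene for every 1000000 UMIs of all shared genes, summed over the NK cells of 1 library. NK cells held 16.3, 25.5 and 18 CPM of Mtdh in intact KO, KO marrow in KO host and KO marrow in WT host, against 93.6, 119 and 115 CPM in WT marrow in KO host, WT marrow in WT host and intact WT. The 3 KO marrow libraries all stood below the 3 WT marrow libraries, and their NK UMIs of Mtdh numbered 32, 12 and 3. The log2 fold change with KO marrow was -2.37 (SE 0.34, adjusted p = 0.00984, edgeR's quasi-likelihood test with Benjamini-Hochberg adjustment). The call ended without KO marrow in WT host (-2.18, adjusted p = 0.188) and without WT marrow in KO host (-2.89, adjusted p = 0.251). Snd1, whose protein binds that of Mtdh, had 156, 46.7 and 66.0 CPM with KO marrow, against 52.0, 48.0 and 136 CPM with WT marrow, with overlapping groups and both intact libraries highest.

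Depth differed between the libraries. Their NK cells held 1976411, 471543 and 166902 UMIs in intact KO, KO marrow in KO host and KO marrow in WT host, and 577228, 521406 and 716630 UMIs in WT marrow in KO host, WT marrow in WT host and intact WT. A gene with 3 UMIs stands at 1.52 CPM in intact KO and at 18 CPM in KO marrow in WT host, so low genes in that library rest on few molecules. The median NK cell held between 8938.5 and 18653 UMIs. At the edge of the gate, 49 members held exactly 2 UMIs of Ncr1 and Klrb1c, 103 further barcodes with 1 UMI lay just outside, 101 were left out only for Cd3 and 13 only for C1q. Any 2 libraries shared between 8 and 24 barcodes. Genes typical of macrophages stood in the members at a median of 17.2% of their level in C1q-high cells (C1q share of 1% or more) in intact KO and at 3.70 to 8.72% in the other 5 libraries.

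The NK label was set against marker genes that no gate used. The 10 NK markers other than Ncr1 and Klrb1c, summed, stood at 4527 to 7516 CPM in the members, against 1493 to 3872 CPM in CD8 T cells and 6.70 to 77.4 CPM in C1q-high cells of the same libraries. Nkg7, which encodes a granule protein of cytotoxic lymphocytes and was not in the gate, had a UMI in 257 of 267 members, against 2.23 to 20.6% of C1q-high cells. Its level did not separate the members from CD8 T cells, with medians of 1215 and 1431 CPM. Klrk1 ranged from 272 to 447 CPM and Klrd1, a subunit of receptors for MHC class I, from 578 to 999.8 CPM. Eomes, a transcription factor of conventional NK cells, ranged from 83.3 to 156 CPM over the 6 libraries. Itga2, an integrin subunit of conventional NK cells and also an NK marker, was low. Its median was 12.3 CPM in the members and 1.84 CPM in CD8 T cells. It had 0 UMIs in members of WT marrow in KO host. KO marrow in WT host and WT marrow in WT host held 3 UMIs each. Of T cell genes outside the gates, Trac, the constant part of the T cell receptor alpha chain, had a median of 7.12 CPM in NK cells against 482 CPM in CD8 T cells. Trbc1, a beta chain constant gene also transcribed in innate lymphocytes, did not separate them, with medians of 447 and 440 CPM, and nor did Thy1, with 382 and 432 CPM. Trdc, the delta chain constant gene, was higher in the members, at 14.9 to 45.1 CPM against 0 to 12.4 CPM. Members that held Nkg7 and no UMI of Trac, Trbc1, Trbc2, Trdc, Cd4 or Cd8 numbered 8 of 267, and 15 held no C1q UMI at all. Markers of type 1 innate lymphoid cells, summed, reached 373 to 1368 CPM in the members, against 719 to 1510 CPM in CD8 T cells and 472 to 703 CPM in C1q-high cells. In that list Itga1 stood at 93.4 to 329 CPM in the members. It stood at 43.2 to 102 CPM in CD8 T cells and 1.20 to 4.78 CPM in C1q-high cells. The members held more Itga1 than Itga2 in every library. Tnfsf10 also had a higher median in the members than in CD8 T cells (54.8 and 31.8 CPM). The medians of Cxcr6 (9.29 and 203 CPM), Il7r (22.2 and 163 CPM), Cd200r1, Tmem176b and Inpp4b were lower. Inpp4b stood at 456 and 798 CPM in members of intact KO and intact WT, against 95.5 to 174 CPM in the transplanted libraries. Which members were conventional NK cells and which were type 1 innate lymphoid cells was not settled. Eomes and Itga1, an integrin subunit typical of those tissue cells, were detected in the same cell in 46, 11 and 6 members with KO marrow and in 19, 19 and 25 with WT marrow, and Itga1 without Eomes in 28, 8 and 1 with KO marrow and 4, 8 and 7 with WT marrow. Of the markers of other innate lymphoid cells, Il1rl1, Il17rb, Il23r and Il22 were at 0 in every library, while Gata3 stood at 34.0 to 89.9 CPM in the members, against 16.1 to 37.4 CPM in CD8 T cells, and Areg at 1.73 to 74.8 CPM, against 25.2 to 149 CPM.

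Against all other retained barcodes, the genes that stood out in NK cells of every library were those of the killing machinery and its receptors. Because the gate chose the cells, these values carry no test. Gzmc, which encodes granzyme C, led with a median of 12576 CPM in NK cells against 29.9 CPM in the rest. Gzma, encoding granzyme A, followed at 1786 against 8.17 CPM. The Ly49 receptor gene Klra7 stood at 399 against 1.80 CPM and the carbonic anhydrase gene Car2 at 449 against 2.29 CPM. Xcl1, a chemokine that draws cross-presenting dendritic cells, stood at 733 against 6.75 CPM, and Il2rb, a receptor chain for the cytokines IL-2 and IL-15, at 767 against 10.1 CPM. The protease inhibitor Serpinb9, which shields killer cells from their own granzyme B, stood at 374 against 14.4 CPM.

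Granzymes B to G are encoded side by side on chromosome 14 of mm10, all on the minus strand: Gzme at 56117626 to 56120625, Gzmd at 56129556 to 56132608, Gzmg at 56156582 to 56159579, Gzmf at 56205263 to 56211417, Gzmc at 56231441 to 56234656 and Gzmb at 56258838 to 56262260. Gzma lies apart, on chromosome 13 at 113093825 to 113100981. The promoters of Gzmc, Gzmd and Gzme are shown because these related genes have similar promoters, while their levels in NK cells parted. The level of Gzmc summed over cells was alike in the 6 libraries, and those of Gzmd and Gzme were not. Each spans 250 bases before to 50 after the start, from RefSeq on GRCm38.p6, minus strand, with the core motif of Runx factors, TGTGGT or its reverse ACCACA, in capitals.
Gzmc, chr14:56234608-56234907: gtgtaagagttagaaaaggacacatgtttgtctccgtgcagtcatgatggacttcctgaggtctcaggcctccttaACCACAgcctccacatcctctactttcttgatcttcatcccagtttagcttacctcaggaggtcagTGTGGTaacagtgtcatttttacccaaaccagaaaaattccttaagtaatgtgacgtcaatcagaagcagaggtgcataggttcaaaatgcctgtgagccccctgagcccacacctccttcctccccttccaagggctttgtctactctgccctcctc
Gzmd, chr14:56132544-56132843: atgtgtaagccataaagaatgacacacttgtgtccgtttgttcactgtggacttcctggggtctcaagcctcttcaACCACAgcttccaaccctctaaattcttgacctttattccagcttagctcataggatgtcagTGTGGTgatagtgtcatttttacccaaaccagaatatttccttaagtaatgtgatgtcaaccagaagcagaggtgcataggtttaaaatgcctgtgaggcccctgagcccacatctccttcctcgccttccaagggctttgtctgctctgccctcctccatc
Gzme, chr14:56120576-56120875: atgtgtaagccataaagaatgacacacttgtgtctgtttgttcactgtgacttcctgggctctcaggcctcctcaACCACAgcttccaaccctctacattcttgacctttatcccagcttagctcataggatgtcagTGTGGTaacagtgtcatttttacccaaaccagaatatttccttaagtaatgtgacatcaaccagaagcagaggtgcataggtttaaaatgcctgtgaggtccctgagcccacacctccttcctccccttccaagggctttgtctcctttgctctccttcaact
The motif, searched on both strands, occurs 2 times in each of these and in the promoters of Gzmb, Gzmf and Gzmg, at -174 and -108 from the start in Gzmc, -174 and -112 in Gzmd, -175 and -113 in Gzme, and -93 and -34 in Gzmb. Of 32851 promoters of the same length, 16.8% hold at least 1 copy and 1.81% hold 2 or more. The Gzmd and Gzme promoters are identical at 93.4% of aligned bases, Gzmc and Gzmd at 83.4%, while Gzmb matches the other 5 at 46.8 to 51.7%. Gzmd and Gzme transcripts are 90.4% identical, so their UMIs and those of Gzmf and Gzmg may be exchanged among these 4 genes. Gzmc is 69.9 to 71.4% identical to them.

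Gzmc had 12898, 12078 and 9018 CPM in NK cells with KO marrow (intact KO, KO marrow in KO host, KO marrow in WT host) and 12254, 14348 and 13264 CPM with WT marrow (WT marrow in KO host, WT marrow in WT host, intact WT). Every library thus lay between 9018 and 14348 CPM in this sum, and the KO marrow in WT host library was lowest. There, 2 of 15 cells held 52.9% of the Gzmc UMIs. The median NK cell held 7026, 3372 and 1898 CPM of Gzmc with KO marrow, against 10570, 10785 and 10142 CPM with WT marrow. The difference in these medians was not tested. In the same libraries CD8 T cells held 4.95 to 265 CPM of Gzmc and C1q-high cells 3.56 to 10.3 CPM. Gzmb was as even, at 3527, 3832 and 3249 CPM in the KO hosts against 2596, 2972 and 3270.5 CPM in the WT hosts (in the order intact KO, KO marrow, WT marrow for KO hosts, and KO marrow, WT marrow, intact WT for WT hosts). Gzma varied more, at 1295, 3136 and 579 CPM in KO hosts against 1211, 3055 and 2277 CPM in WT hosts, with overlapping groups.

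Gzmd, Gzme, Gzmf and Gzmg, granzymes of mouse with less studied roles, were the ones that spread widely. Gzmd stood at 5781, 7917 and 3233 CPM in NK cells of KO hosts, against 168, 2395 and 1030.3 CPM in WT hosts. Gzmf stood at 8244, 10028 and 6038 CPM in KO hosts, against 672, 5947 and 3032 CPM in WT hosts. Every KO host library stood above every WT host library, with the smallest gap for Gzmf between 6038 and 5947 CPM. Gzme stood at 2038, 2947 and 1064 CPM against 0, 969 and 394 CPM, and Gzmg at 2958, 5392 and 1395 CPM against 0, 551 and 172 CPM. The zeros belong to KO marrow in WT host, which held 15 NK cells. None of these differences passed the test: the log2 fold change with KO host was 2.91 for Gzmd (SE 1.94), 2.83 for Gzme (SE 2.58), 2.07 for Gzmf (SE 1.45) and 3.93 for Gzmg (SE 2.38). The library KO marrow in WT host set most of that size, as the value for Gzmd was 0.66 without it. Without WT marrow in KO host it was 5.80 and passed (adjusted p = 0.000325, edgeR).

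A UMI of Gzmd to Gzmg was found in 143 of 267 members, but the UMIs were unevenly spread. Of the summed Gzmd to Gzmg UMIs, 37436, 12387 and 6767 came from 64, 20 and 17 NK cells of KO hosts, and 140, 5139 and 3302 from 4, 23 and 15 NK cells of WT hosts. The single richest cell held 11.3, 47.1 and 66.7% of them in the KO hosts and 87.1, 23.4 and 47.6% in the WT hosts. Without that cell, the sum stood at 17205.5, 15268 and 4305 CPM in KO hosts, against 116, 7905 and 2589 CPM in WT hosts, and the groups overlapped.

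**Figure D1:**
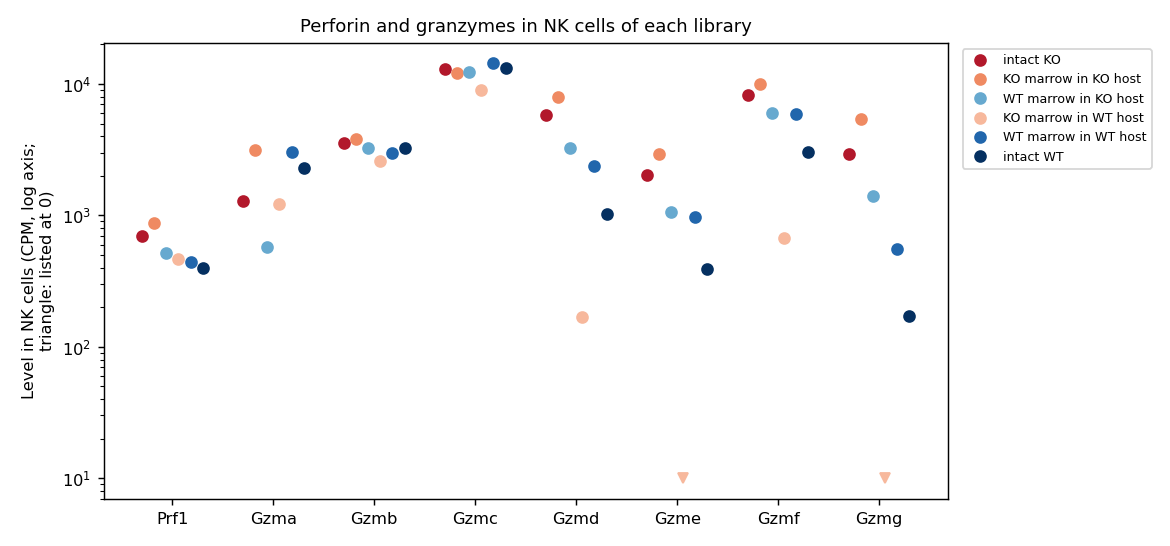
Level of each granzyme gene and of Prf1 in NK cells, in CPM on a log axis, with 1 point per library, KO hosts to the left of WT hosts. Triangles mark a gene listed at 0. Gzmc lies between 9018 and 14348 CPM in the 6 libraries, while Gzmd runs from 168 to 7917 CPM, lowest in KO marrow in WT host.

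Perforin, encoded by Prf1, stood at 691, 883 and 518 CPM in NK cells of KO hosts, against 468, 445 and 395 CPM in WT hosts. The groups did not overlap, yet the log2 fold change of 0.55 (SE 0.19) did not pass edgeR's quasi-likelihood test (unadjusted p = 0.0114, Benjamini-Hochberg adjusted p = 0.999), and leaving out KO marrow in WT host gave 0.23. Of the 17 genes of the cytotoxic granule list, 14 were tested and 0 passed with host or marrow genotype. In 5 of the 14 (Gzmd, Gzme, Gzmf, Gzmg and Prf1) every KO host library stood above every WT host library in CPM, against 2.49% of all 5622 genes tested. The median log2 fold change of the list with KO host was 0.25, against 0.01 over all genes tested. The 4 near-copy granzymes are not separate evidence, since they share sequence.

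Single NK cells differed in which granzyme they held. Of Gzma, 126 of 267 members held at least 2 UMIs and 132 held 0. By library, at least 2 UMIs were held by 46.3, 57.1 and 60.0% of NK cells with KO marrow (intact KO, KO host, WT host), and by 25.9, 52.9 and 43.9% with WT marrow (KO host, WT host, intact WT). After each cell was thinned to 2000 UMIs, the share with any Gzma UMI was 43.5, 57.1 and 60.0% with KO marrow and 14.8, 52.9 and 43.9% with WT marrow, against 0.161 to 0.521% of C1q-high cells. WT marrow in KO host stood lowest on each of these measures, with 27 cells. Gzmc was undetected in 51 of 267 members, namely 26 of 108, 14 of 42 and 2 of 15 with KO marrow, and 0 of 27, 1 of 34 and 8 of 41 with WT marrow. Cells without it were shallower, with a median depth of 5093 UMIs, against 15607 UMIs in cells with it. Both transcripts were found in 87 cells, Gzma alone (at least 2 UMIs) in 39, Gzmc alone in 129 and neither in 12.

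Members with at least 2 Gzma UMIs held more Prf1 than the other members in 6 of 6 libraries, with medians over libraries of 573 and 477 CPM. In KO marrow in WT host the difference was under 1 CPM (468 against 467 CPM). Eomes was higher in 5 of 6 libraries (medians 155 and 79.4 CPM), and so was Klrg1, a receptor of mature NK cells (89.2 and 24.5 CPM). Il7r, which encodes the IL-7 receptor chain typical of innate lymphoid cells other than mature NK cells, was lower in 6 of 6 (8.24 and 31.4 CPM). Gzmb was higher in only 2 of 6. C1q-high cells held 14.2 to 98.7 CPM of Il7r, more than all members of the same library in each case. The part of macrophage RNA in the Il7r difference was not tested.

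A second split, by whether any Gzmc was found, could be made in the 4 libraries with at least 2 Gzmc-negative cells. Gzmc-negative cells held 4387 CPM of Gzma over all cells, against 1437 CPM in Gzmc-positive ones, and were higher in 4 of 4 libraries. The chemokine Ccl5 stood at 3222 against 75.2 CPM, higher in 4 of 4. Itga2, the integrin subunit recognised by the antibody DX5 on conventional NK cells, stood at 60.6 against 6.33 CPM, higher in 4 of 4, and Itga1 at 52.2 against 248 CPM, lower in 4 of 4. Gzmb was lower in 4 of 4, at 1423 against 3608 CPM. Over all 267 cells, Spearman correlations of level per cell were 0.91 for Gzmd with Gzme, 0.59 for Gzmc with Gzmd and -0.34 for Gzma with Gzmc. Cells share their library and depth, and near-copies share sequence, so these are descriptions.

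**Figure D2:**
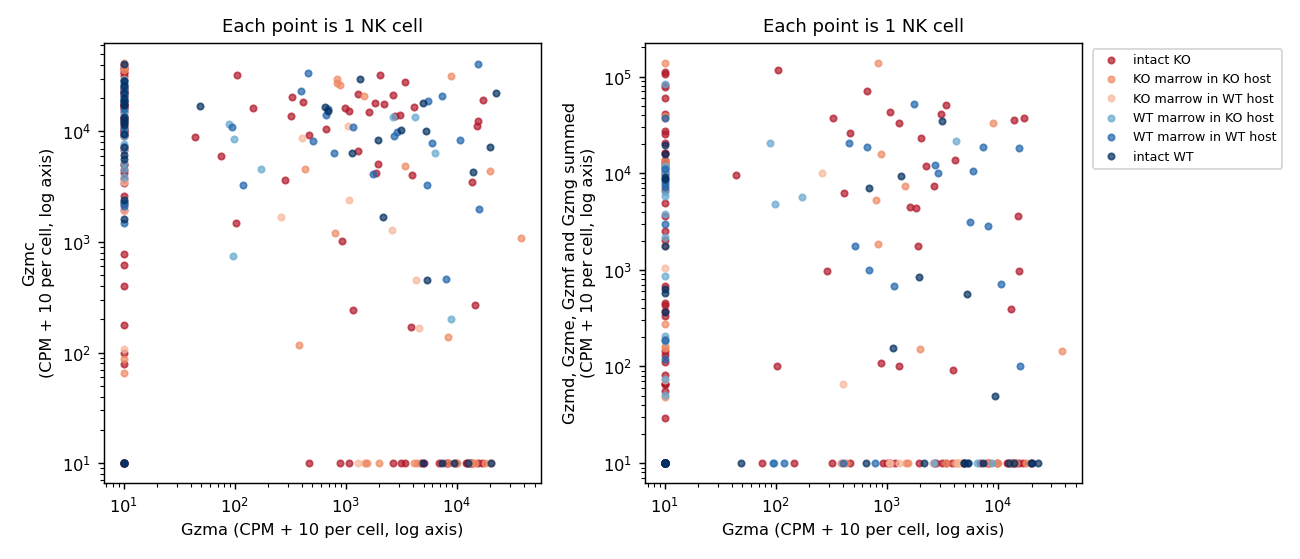
Each point is 1 NK cell, with Gzma on the horizontal axis against Gzmc (left) or the sum of Gzmd to Gzmg (right), both in CPM with 10 added, on log axes and coloured by library. Cells fall into a Gzma-negative column of 132 cells and a Gzma-positive group, and 51 cells lie on the floor for Gzmc.

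NK cells were a small share of the retained barcodes. They made up 1.54% (95% exact binomial interval 1.26 to 1.85) in intact KO, 0.516% (0.372 to 0.697) with KO marrow in KO host and 0.470% (0.310 to 0.682) with WT marrow in KO host. In the WT hosts the shares were 0.255% (0.143 to 0.421) with KO marrow, 0.523% (0.363 to 0.730) with WT marrow and 0.576% (0.413 to 0.780) in intact WT. Intact KO lay above the intervals of the other 5 libraries, which cover counting error only. Neither genotype passed an exact two-sided permutation of 3 libraries against 3, whose smallest possible p is 0.1: the mean log2 ratio over matched pairs was 0.76 with KO host (p = 0.6, adjusted 1) and 0.17 with KO marrow (p = 0.9, adjusted 1). The value with KO host was 0.21 without intact KO and 0.39 without KO marrow in WT host, and at most 1.07 with any other library left out.

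As a share of lymphocytes (C1q share under 1% and either a member or at least 1 UMI of the T and B cell genes above), NK cells were fewer with KO marrow. They made up 5.63% of 1920 lymphocytes in intact KO, 1.76% of 2382 with KO marrow in KO host and 1.71% of 877 with KO marrow in WT host. With WT marrow they made up 8.28% of 326 in KO host, 6.67% of 510 in WT host and 7.03% of 583 in intact WT. The groups did not overlap and the share was lower with KO marrow in each of the 3 pairs, with a mean difference of -1.51 on the log2 scale (p = 0.1, the smallest possible, and adjusted p = 0.4 over 4 tests, exact permutation). With KO host the mean log2 ratio was 0.01 (p = 1, exact permutation). CD8 T cells, which stand in the same denominator, numbered 355, 1425 and 251 with KO marrow and 78, 146 and 83 with WT marrow. Thinning every barcode to 2000 UMIs left 40, 11 and 3 members with KO marrow and 2, 4 and 23 with WT marrow, and the mean log2 ratio was then -0.95 (p = 0.5, exact permutation). More members were thus left in intact KO (40) and intact WT (23) than in any transplanted library. The gate gene Klrb1c stood at 236 and 415 CPM in members of these intact libraries, against 95.9 to 170 CPM in the transplanted ones. Its part in the shares was not tested.

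**Figure D3:**
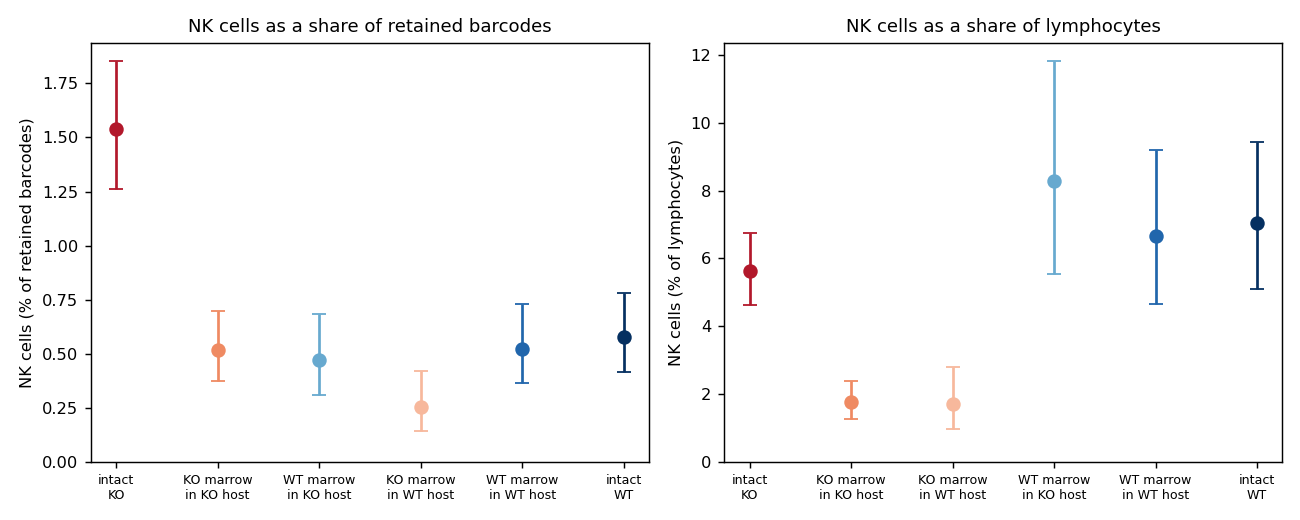
NK cells as a percentage of retained barcodes (left) and of lymphocytes (right), 1 point per library with exact 95% binomial intervals, KO hosts to the left of WT hosts in the first and KO marrow to the left of WT marrow in the second. Intact KO is highest at 1.54% of retained barcodes, and the KO marrow libraries lie at 1.71 to 5.63% of lymphocytes, below 6.67 to 8.28% with WT marrow.

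With KO host, 3 of 5622 genes passed edgeR's quasi-likelihood test in NK cells (Benjamini-Hochberg adjusted p under 0.05), which is 0.0534%, and all 3 were higher. At an unadjusted p under 0.05 there were 104 higher and 81 lower genes. The 3 were Cxcl9 and Cxcl10, chemokines induced by interferon gamma that draw T and NK cells through Cxcr3, and Ly6a, which encodes the interferon-inducible surface protein Sca-1. C1q-high cells of the same libraries held more of both chemokines than NK cells did.

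Cxcl9 had 192, 206 and 22.5 CPM in NK cells of KO hosts, against 0, 3.84 and 1.40 CPM in WT hosts. Every KO host library stood above every WT host library, as for 2.49% of all genes tested. The log2 fold change was 4.36 (SE 0.62, adjusted p = 0.0335 by edgeR's quasi-likelihood test with Benjamini-Hochberg adjustment). Of the 378 UMIs in intact KO, 1 cell held 206, and 34 of 108 cells held any. C1q-high cells held 1982, 2264 and 195 CPM in the KO hosts, against 132, 29.2 and 156 CPM in the WT hosts. In NK cells with a macrophage gene share under 1%, Cxcl9 stood at 22.4, 47.6 and 6.28 CPM in KO hosts, against 0, 4.03 and 1.77 CPM in WT hosts, too low there to be tested. All 7 macrophage markers had UMIs in NK cells, with a summed level of 6251, 2194 and 8657 CPM in KO hosts and 7219, 2681 and 5906 CPM in WT hosts, against 40801 to 77614 CPM in C1q-high cells, and their part in the result was not tested further. The call ended without KO marrow in KO host (adjusted p = 0.0637) and without KO marrow in WT host (adjusted p = 0.379).

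Cxcl10 had 65.5, 125 and 125 CPM in KO hosts, against 24.0, 23.0 and 1.40 CPM in WT hosts, which is 2.90 higher on the log2 scale by the fit (SE 0.44, adjusted p = 0.0396, edgeR with Benjamini-Hochberg adjustment). In WT marrow in KO host, 69 of its 72 UMIs came from 1 cell. In NK cells of low macrophage gene share the log2 fold change was 0.99 (adjusted p = 1.0, edgeR), after removal of the highest Scrublet scores, a measure of likely doublets, 1.19 (adjusted p = 0.999) and with Cd3-positive cells let in 1.53 (adjusted p = 1.0). The call also ended without KO marrow in WT host (adjusted p = 0.48) and without WT marrow in KO host (adjusted p = 0.769).

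Ly6a had 79.8, 244 and 43.3 CPM in KO hosts, against 66.0, 1.92 and 1.40 CPM in WT hosts. The value of 66.0 CPM in KO marrow in WT host lies among those of the KO hosts, and Ly6a passed for both genotypes: edgeR with Benjamini-Hochberg adjustment gave log2 fold changes of 2.53 for KO host (SE 0.43, adjusted p = 0.0396) and 2.84 for KO marrow (SE 0.41, adjusted p = 0.00984). It was detected in 47, 21 and 3 NK cells with KO marrow and in 6, 1 and 1 with WT marrow. In NK cells of low macrophage gene share it stood at 66.6, 157 and 34.9 CPM with KO marrow, against 31.4, 2.01 and 0 CPM with WT marrow, and edgeR gave 2.85 for the host (adjusted p = 0.121) and 2.62 for the marrow (adjusted p = 0.0666). The host call ended without KO marrow in KO host (0.0785), KO marrow in WT host (0.124) or WT marrow in KO host (0.454), and the marrow call without KO marrow in WT host (0.165) or WT marrow in KO host (0.0512), all adjusted p-values of edgeR's test.

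**Figure D4:**
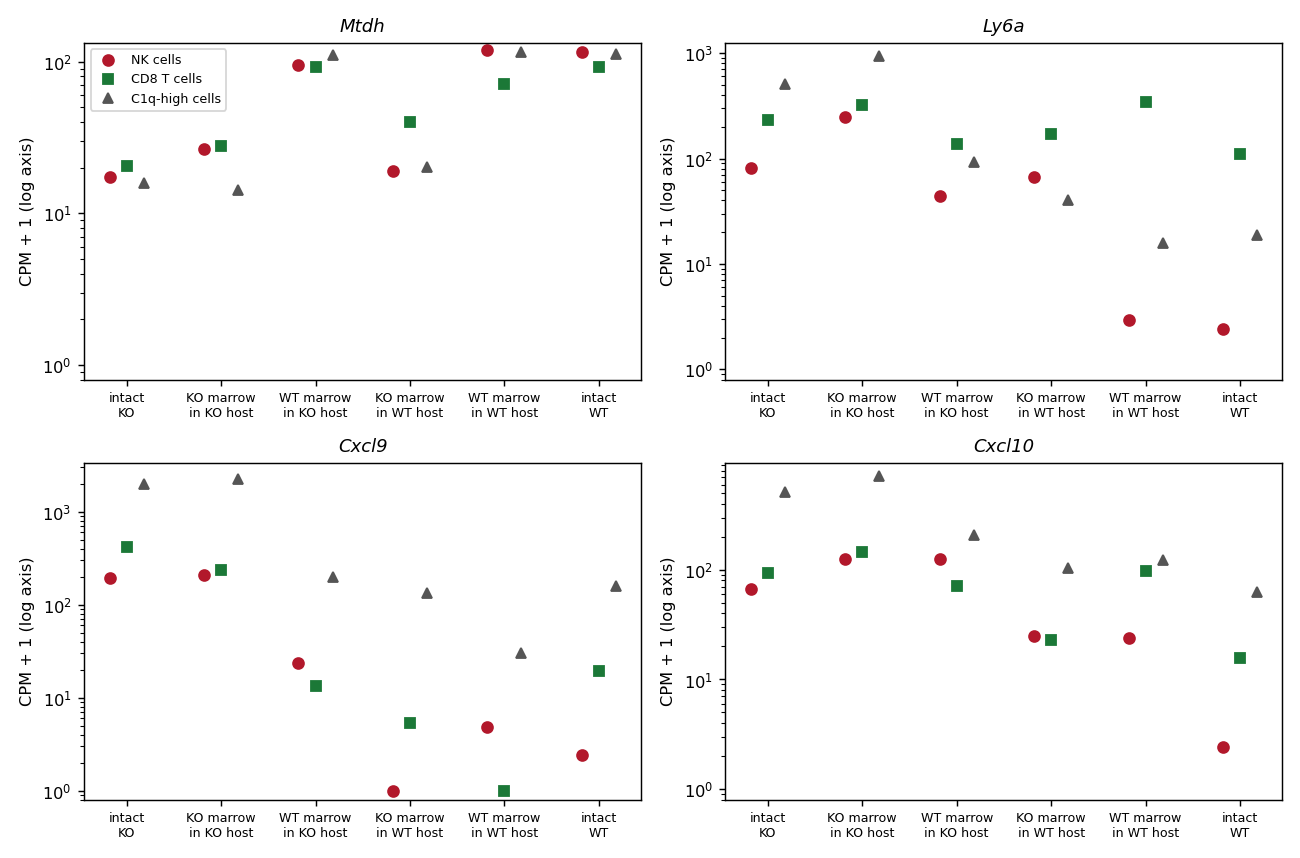
Mtdh, Ly6a, Cxcl9 and Cxcl10 in NK cells, CD8 T cells and C1q-high cells of each library, as CPM with 1 added on a log axis, KO hosts to the left of WT hosts. Mtdh is at 16.3 to 25.5 CPM in NK cells with KO marrow and 93.6 to 119 CPM with WT marrow, and Cxcl9 of C1q-high cells lies above that of NK cells in each library.

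With KO marrow, 2 of 5622 genes (0.0356%) passed in NK cells, Mtdh and Ly6a, by edgeR's quasi-likelihood test with Benjamini-Hochberg adjustment. At an unadjusted p under 0.05 there were 162 higher and 133 lower genes. Among genes that did not pass, Havcr2, encoding the inhibitory receptor TIM-3, stood at 36.1, 33.9 and 24.0 CPM with KO marrow, against 8.67, 1.92 and 8.41 CPM with WT marrow (log2 fold change 1.92, SE 0.60). C1q-high cells held 55.3 to 122 CPM of it. Itga1 had 249, 93.4 and 132 CPM with KO marrow, against 213, 173 and 329 CPM with WT marrow, and the groups overlapped (-0.76, SE 0.23, unadjusted p = 0.00439 and adjusted p = 0.875, edgeR). Ccl5 stood at 486, 999 and 899 CPM against 91.9, 32.6 and 269 CPM and did not overlap (2.84, SE 1.18, adjusted p = 0.976, edgeR). Every KO marrow library thus stood above every WT marrow library, as for 4.43% of all genes tested. In KO marrow in WT host, 1 cell held 85 of 150 UMIs, and without it that library stood at 399 CPM. After thinning, Ccl5 was found in 16.6, 24.5 and 5.05% of C1q-high cells with KO marrow, against 5.64, 2.51 and 2.47% with WT marrow. Those groups overlapped, and the part of macrophage RNA in the NK difference was not tested.

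A further contrast set the 2 libraries with KO in both host and marrow against the other 4. It was chosen with earlier results of these data known, and its p-values leave that choice out of account. Of 6499 genes, 6 passed (0.0923%), 4 higher and 2 lower, and 221 higher and 174 lower genes reached an unadjusted p under 0.05. Ctsg, encoding the myeloid granule protease cathepsin G, had 135 UMIs in 5 NK cells of intact KO and 81 UMIs in 1 NK cell of KO marrow in KO host, and 0 UMIs in the other 4 libraries. With 88.5 CPM in the pair against a floor of 3 UMIs over the other 4 libraries, its summed level was at least 58.4-fold higher. That bound treats UMIs as independent and leaves out of account how few cells held them. Without its 1 cell, KO marrow in KO host stood at 0 CPM. The adjusted p was 1.27e-06 (edgeR with Benjamini-Hochberg adjustment), a call that DESeq2 did not make (adjusted p = 1.0). Ly6c2, a surface protein of memory-type lymphocytes and monocytes with near copies in the genome, had 43.7 and 121 CPM, against 1.40 to 10.4 CPM in the other 4 (log2 fold change 4.28, SE 0.45, adjusted p = 5.23e-05, edgeR). It was found in 22 and 7 NK cells of these 2 libraries and in 1 cell of each other library. CD8 T cells held 98.5 to 643 CPM of it, and when Cd3-positive cells were let into the gate the value was 1.37 (adjusted p = 0.657, edgeR).

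The remaining calls of this contrast were smaller. How many of all genes tested did not overlap between the groups of this contrast was not counted. Mxd1, an antagonist of Myc at DNA, had 87.4 and 157 CPM, against 33.6 to 66.0 CPM in the other 4 libraries (1.35, SE 0.25, adjusted p = 0.0332, edgeR with Benjamini-Hochberg adjustment). Myc, the growth-promoting transcription factor, had 12.2 and 4.24 CPM, against 26.9 to 63.1 CPM (-2.48, SE 0.42, adjusted p = 0.0199, edgeR). Neither overlapped between the groups, but leaving out 1 library gave adjusted p-values of 0.0127 to 0.102 for Mxd1 and 0.00141 to 0.124 for Myc. H2-Q7, an MHC class I gene with near copies, rose by 1.31 (SE 0.19, adjusted p = 0.00378, edgeR), at 284 and 929 CPM against 139 to 444 CPM. Fcrls, a gene of macrophages and microglia, was lower (log2 fold change -2.16, SE 0.38, adjusted p = 0.027, edgeR), with 34.6 and 2.12 CPM, against an overlapping 24.0 to 125 CPM. C1q-high cells held 194 and 136 CPM of it, against 901 to 1219 CPM. The part of macrophage RNA in it was not tested. H2-Q7 lost its call without KO marrow in KO host (0.0585), WT marrow in KO host (0.0505) or WT marrow in WT host (0.050), and for Fcrls leaving out 1 library gave adjusted p-values of 0.000524 to 0.109.

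Of 18 tested genes of activating receptors and their adaptors, 0 passed with host or marrow genotype, which does not show equal levels. With KO marrow, 3 were lower and 0 higher at an unadjusted p under 0.05 (edgeR), against 133 lower and 162 higher of all 5622 genes tested. The medians were 0.02 with KO host and -0.25 with KO marrow, against 0.01 and 0.00 over all genes tested. Tyrobp, the DAP12 adaptor that relays signals of several NK receptors, ranged from 1527 to 2245 CPM over the 6 libraries, and Fcer1g, an adaptor of NKp46 and Fc receptors, from 2284 to 2848 CPM. Klrk1 was the 1 member with every KO host library below every WT host library (272, 314 and 374 CPM against 438, 413 and 447 CPM), against 3.63% of all genes tested. Inhibitory receptors had 12 tested genes and 0 calls, with medians of 0.21 and -0.42. At an unadjusted p under 0.05 (edgeR), 3 of these were lower and 1 higher with KO marrow. Klra7 stood at 386, 409.5 and 378 CPM with KO marrow against 506, 484 and 388 CPM with WT marrow, and its UMIs may be exchanged with those of other Klra genes. Klrd1 stood at 578, 851 and 636 CPM with KO marrow against 825, 999.8 and 908 CPM with WT marrow, and the groups overlapped.

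Cytokine receptors, 14 tested, had 0 calls and medians of 0.08 and 0.23. Il2rb stayed within 659.5 to 861 CPM over the 6 libraries. Ifngr1, the ligand-binding chain of the interferon gamma receptor, stood at 555, 645 and 569.6 CPM with KO marrow, against 414, 487 and 433 CPM with WT marrow, without overlap and above, as 4.43% of all genes tested did (log2 fold change 0.37, SE 0.18, not passed). Of 14 tested NK transcription factor genes, 0 passed, and the medians were -0.04 and 0.04. Id2, which restrains E proteins in innate lymphocytes, stood at 288, 333 and 402 CPM with KO marrow against 543, 395 and 613 CPM with WT marrow, which overlap. Death ligands and cytokines had 6 tested genes and 0 calls. Fasl, the ligand of the death receptor Fas, had 75.2, 91.2 and 86.7 CPM in KO hosts against 77.9, 61.4 and 54.7 CPM in WT hosts. Csf2 was listed with 1 UMI in intact WT and 0 in the other 5 libraries.

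Of 14 interferon response genes tested, Ly6a alone passed, with both genotypes, against 0.0534% of all genes tested with KO host and 0.0356% with KO marrow. The medians were 0.64 with KO host and 0.54 with KO marrow, against 0.01 and 0.00 over all genes. Isg15, a ubiquitin-like protein induced by interferon, stood at 68.6, 61.5 and 65.9 CPM in KO hosts, against 54.0, 30.7 and 11.2 CPM in WT hosts (1.18, SE 0.40, adjusted p = 0.999, edgeR). Every KO host library thus stood above every WT host library, as for 2.49% of all genes tested. Irf1, a transcription factor of the interferon gamma response, stood at 82.3, 97.6 and 72.0 CPM with KO marrow, against 52.0, 61.4 and 32.2 CPM with WT marrow. C1q-high cells held 164, 176 and 84.9 CPM of Isg15 in KO hosts against 31.2, 53.0 and 31.2 CPM in WT hosts. MHC class I genes, 9 tested, had 0 calls and medians of 0.29 and 0.09. The proliferation list, 14 tested, had 0 calls, and Mki67 stood at 91.5, 129 and 27.7 CPM in KO hosts against 6, 11.5 and 132 CPM in WT hosts.

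The other lists had few calls. Maturation genes, 8 tested with host and marrow, had 0 calls and medians of 0.47 and 0.45, and in the contrast of both KO, Ly6c2 was the 1 call among 9 tested, against 0.0923% of all genes. Early activation genes, 13 tested, had 0 calls with host and marrow and medians of 0.15 and 0.07, and Myc was the 1 call in the contrast of both KO, against the same 0.0923%. Chemokines other than Cxcl9 and Cxcl10, which the list does not hold (4 tested with host and marrow), tissue residency and type 1 innate lymphoid genes (12), chemokine and egress receptors (3), glycolysis (10), lipid and cholesterol genes (9) and dissociation stress genes (13) had 0 calls in the 3 contrasts. Their medians with KO host were -0.04, 0.11, 0.29, 0.17, -0.48 and -0.10. Among the stress genes, Hspa1a, a heat shock gene with a near copy in Hspa1b, stood at 38.1, 31.8 and 34.7 CPM in KO hosts, against 66.0, 288 and 165 CPM in WT hosts, without passing the test. Every KO host library thus stood below every WT host library, as for 3.63% of all genes tested. With KO marrow, Atf3, Hspa1b and Dnajb1 were below in every library, 3 of 13 against 3.02% of all genes tested, and did not pass.

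Whether NK cells and CD8 T cells differed in their response to the host was tested in 1 model over both cell types with the library as a block. With KO host, 7 of 8059 genes (0.0869%) differed between the cell types by edgeR's quasi-likelihood test with Benjamini-Hochberg adjustment, and with KO marrow 5 (0.062%). The values are the log2 fold change in NK cells minus that in CD8 T cells. CD8 T cells alone had 27 calls of 8722 genes with KO host (0.31%), 26 higher and 1 lower, and 4 with KO marrow (0.0459%).

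Ifng, which encodes interferon gamma, stood at 8.64, 27.6 and 13.9 CPM in NK cells of KO hosts, against 30.0, 30.7 and 14.0 CPM in WT hosts. In CD8 T cells it stood at 93.8, 165 and 363 CPM in KO hosts, against 19.3, 31.3 and 24.8 CPM in WT hosts. The CD8 groups did not overlap, with KO hosts higher, while the NK groups overlapped and each KO host lay below its matched WT host. The NK values rest on 5 to 17 UMIs per library, and the 30.0 CPM of KO marrow in WT host are 5 UMIs of 1 cell, without which that library stood at 0 CPM, below its pair. The difference between the cell types was -3.96 (SE 0.48, adjusted p = 0.00136, edgeR with Benjamini-Hochberg adjustment). The call ended without intact KO (0.0842) or WT marrow in KO host (0.375).

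Prf1 rose with KO host in CD8 T cells, at 225, 631 and 425 CPM against 101, 73.9 and 54.5 CPM (2.30, SE 0.22, adjusted p = 0.0039, edgeR), beside the 0.55 in NK cells given above. The difference was -1.72 (SE 0.23, adjusted p = 0.00366, edgeR with Benjamini-Hochberg adjustment), and its call ended without intact KO (0.0597) or WT marrow in KO host (0.141). NK cells of every library held more Prf1 than CD8 T cells of the same library. Tnfrsf9, the co-stimulatory receptor 4-1BB, stood at 997, 789 and 664 CPM in NK cells of KO hosts against 791, 775 and 607 CPM in WT hosts, and at 518, 607 and 448 CPM in CD8 T cells of KO hosts against 196, 309 and 135 CPM in WT hosts. The difference was -1.17 (SE 0.20, adjusted p = 0.0299, edgeR), with overlapping NK groups and separate CD8 groups. Serpinb6b, an inhibitor of serine proteases, stood at 246, 359 and 272 CPM in NK cells of KO hosts against 396, 438 and 193 CPM in WT hosts, and at 130.2, 298 and 222 CPM against 119, 152 and 19.8 CPM in CD8 T cells (-1.49, SE 0.24, adjusted p = 0.0241, edgeR). Both calls ended when intact KO was left out (0.58 for Tnfrsf9, 0.364 for Serpinb6b), when KO marrow in WT host was (0.541 and 0.142) and when intact WT was (0.124 and 0.0994), and that of Serpinb6b also without WT marrow in KO host (0.139).

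**Figure D5:**
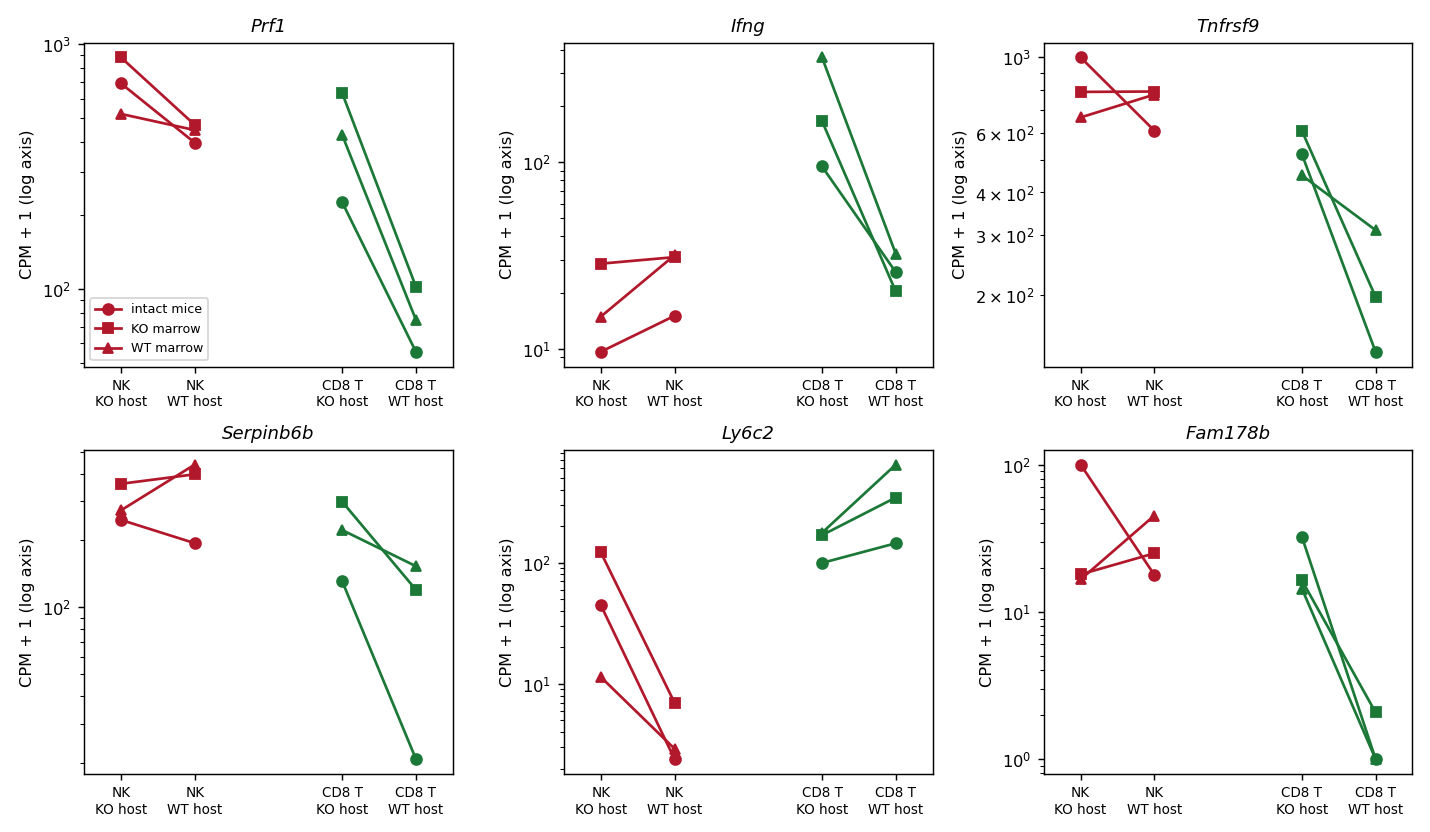
Level of 6 genes in NK cells and CD8 T cells of each library, in CPM with 1 added on a log axis, lines joining the KO and WT host of 1 matched pair, KO hosts to the left of WT hosts. For Ifng, KO hosts span 93.8 to 363 CPM in CD8 T cells and 8.64 to 27.6 CPM in NK cells, against 19.3 to 31.3 and 14.0 to 30.7 CPM in the WT hosts.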

How the data were processed

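Raw UMI counts per gene and barcode were deposited. The authors made them with Cell Ranger (mm10), in version 7.0.1 for intact and 6.1.1 for transplanted libraries per the file headers, so that the version coincides with transplantation. Whether the authors counted introns was not stated. Seurat is also named in the submitters' processing notes. The 30406 gene identifiers common to all libraries were used, for barcodes with at least 200 genes and at most 15% mitochondrial UMIs (Python 3.11.15, scanpy 1.11.5). The gate removed no doublets, and removal by Scrublet was an alternative.

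Groups came from the labels. UMIs of the members were summed per library and tested in edgeR 4.0.16 under R 4.3.3 (robust quasi-likelihood, TMM, filterByExpr), with terms for transplantation, host and marrow genotype, 2 residual degrees of freedom and no interaction term. Each factor has 3 matched pairs, the intact pair entering both. Adjusted p-values are Benjamini-Hochberg values over all genes tested, at a threshold of 0.05, and each SE follows from the fold change and its F statistic. CD8 T cells were barcodes of low C1q share with Cd3 and Cd8 UMIs and none of Cd4, Ncr1, Klrb1c or the B cell genes. Overlap of groups is judged on CPM. In simulated counts for the host contrast over 6090 genes, changes of 1 and 2 on the log2 scale were recovered in 53 and 84% of cases. There, 6 unchanged genes were called as well. The simulation gave every gene the same spread between libraries and no single cells rich in a gene. Its rates therefore need not hold for the real counts.

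Named genes were up to 10 per direction and contrast that passed with 1 sign in all pairs, filled to 5 with genes of at least 50 UMIs ranked by their smallest pair ratio, up to 6 members of each of 17 lists by level, Mtdh, Snd1, the markers and genes of the NK minus CD8 T test. Genes outside this rule, such as Mki67, Csf2, Irf1 and the genes compared between single cells, were chosen after their values were seen. The members and lists were chosen with earlier results of these data known. Intervals cover counting error only.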

Additional observations from a re-analysis of the deposited data

Results flagged for a closer look

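With 1 library per group, outlying libraries within a group were not looked for. The genes given here differed between NK cells and CD8 T cells in their response to a genotype, by the test of that difference in edgeR with Benjamini-Hochberg adjustment. Values are the log2 fold change in NK cells minus that in CD8 T cells. No cause was tested.

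With KO host, the differences of Ifng (-3.96), Prf1 (-1.72), Serpinb6b (-1.49) and Tnfrsf9 (-1.17) have their levels in the report. Ly6c2 differed by 4.48 (SE 0.55, adjusted p = 0.00136, edgeR). It stood at 43.7, 121 and 10.4 CPM in NK cells of KO hosts against 6, 1.92 and 1.40 CPM in WT hosts, and at 98.5, 168 and 175 CPM in CD8 T cells of KO hosts against 344, 643 and 144 CPM in WT hosts. Its call ended without KO marrow in WT host (adjusted p = 0.146). Fam178b differed by -5.34 (SE 0.94, adjusted p = 0.0415, edgeR), with 99.1, 17.0 and 15.6 CPM in NK cells of KO hosts against 24.0, 44.1 and 16.8 CPM in WT hosts, and its call ended without intact KO (0.491) or WT marrow in KO host (0.559). In CD8 T cells it stood at 31.5, 15.4 and 13.4 CPM in KO hosts against 1.07, 0 and 0 CPM in WT hosts. Ccl1, a chemokine gene, differed by -24.74 (adjusted p = 7.06e-08, edgeR), a fitted value that is no bound. Its NK UMIs were 5, 0 and 0 in KO hosts and 143, 0 and 20 in WT hosts, and the 143 came from 1 cell, without whose library the adjusted p was 1.

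With KO marrow, Ccl1 differed by 13.51 (adjusted p = 0.0221, edgeR) on the same UMIs, again no bound, and its call ended without intact KO (0.166), KO marrow in WT host (1) or WT marrow in WT host (1). Ly6c2 differed by 3.17 (SE 0.50, adjusted p = 0.0221, edgeR), a call that ended without intact KO, KO marrow in KO host or WT marrow in KO host (0.105, 0.972 and 0.995). Phlda1 differed by -3.20 (SE 0.50, adjusted p = 0.0221, edgeR), with 27.9, 29.7 and 6 CPM in NK cells with KO marrow against 62.4, 57.6 and 12.6 CPM with WT marrow, ending without intact KO (0.166) or WT marrow in KO host (0.407). In CD8 T cells it stood at 60.9, 90.2 and 53.6 CPM with KO marrow against 19.5, 44.4 and 12.4 CPM with WT marrow. S100a6, a calcium-binding protein, differed by -0.92 (SE 0.13, adjusted p = 0.0135, edgeR), with 1883, 3011 and 2057 CPM in NK cells with KO marrow against 3741, 3458 and 2620.0 CPM with WT marrow, ending without intact KO (0.105), KO marrow in WT host (0.128) or WT marrow in KO host (0.181). Fscn1 differed by -14.65 (adjusted p = 0.0224, edgeR) on 1, 1 and 0 NK UMIs with KO marrow and 3, 10 and 3 with WT marrow, a fitted value that is no bound. Its call ended without intact KO (0.169) or KO marrow in WT host (0.326).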

How the results depend on the processing

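Between genotype groups, no paired analysis was possible because the labels carry no shared replicate numbers for a block. Only the test between NK cells and CD8 T cells had a block, the library. The matched pairs of the report are pairs of genotype groups. Counts of called genes depended on the setting. With KO host (3 called), no filter on low counts gave 25, RLE normalisation 1, DESeq2 0 (50 at an unadjusted p under 0.05), transplanted libraries alone 15, removal of the 6% highest Scrublet scores 0 (145 unadjusted in edgeR), a myeloid share below 1% 0 (150), and leaving out 1 library 2 to 27. With KO marrow (2 called), these gave 24 without a filter, 1 with DESeq2, 8 in transplanted libraries, 0 after Scrublet removal (282 unadjusted in edgeR), 1 without the host term, 1 with Cd3 UMIs allowed and 4 to 24 with 1 library left out. For both KO (6 called) they were 57 without a filter, 16 after Scrublet removal, 29 at low myeloid share and 2 to 164 with 1 library left out. Genes that differed between NK and CD8 T cells with KO host (7 called) numbered 44 without a filter and 6 to 54 with 1 library left out. With KO marrow (5 called) they numbered 30 without a filter, 3 at low myeloid share and 1 to 44 with 1 library left out.

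The mean log2 ratio of the share of retained barcodes with KO marrow was -0.45 in transplanted libraries alone and -0.52 to 0.77 with 1 library left out. That of the share of lymphocytes with KO host was -0.27 after thinning, -0.024 at low myeloid share and -0.66 to 0.66 with 1 library left out. With KO marrow it stayed at -2.07 to -1.21 with 1 library left out. Ccl1 with KO marrow between cell types was -5.73 without KO marrow in WT host. For 45 named gene results, 595 values were recomputed under alternatives, of which 487 kept direction and side of the threshold, 89 lost a call, 18 gained one and 1 changed sign. The 487 include results that had not passed and stayed so, and thus do not measure how stable the calls were. Ly6a with KO host lost its call in 10 settings and kept it in 6. Cxcl10 with KO host lost it in 8 and kept it in 8, and Mtdh with KO marrow lost it in 5 and kept it in 11. A stricter gate (Nkg7 present, no T cell receptor or coreceptor UMI) and a gate with no C1q UMI at all kept 8 and 15 of 267 members and left 3 libraries at 0, and were not run. The low myeloid share, the allowed Cd3 UMIs and the libraries left out between cell types were chosen after seeing the data. The causes were not tested.

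The 15 NK cells of KO marrow in WT host, with a floor of 18 CPM for 3 UMIs, limit every comparison.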
